A study of Mus musculus with 6 samples.

Results

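The Th1 program of mouse CD4+ T cells was followed here through 10 genes: the transcription factors Tbx21, Eomes, Hlx and Stat4, the receptor chains Il12rb1, Il12rb2, Il18r1 and Il18rap, and the secreted products Ifng and Ccl5. They were chosen by symbol, and each matched 1 of the 13177 RefSeq transcript accessions counted in the study. The 3 libraries of the 8 h group came from cells collected 8 h after transfection with a synthetic miR-155 oligonucleotide. The 3 control libraries are described as 0 h, and their treatment label also names the oligonucleotide. The source label of all 6 libraries is CD4+ T cells, while the description of each 8 h library says CD5+. Apart from that description, the labels separate the groups by time only, and no library is labelled as 8 h without the oligonucleotide. Effects of the oligonucleotide, of the 8 h and of any difference in the cells collected cannot be told apart. The labels state neither strain, age, sex nor number of animals, and do not say that replicates were separate animals or cultures, so p-values measure the spread between these samples only.

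Th1 cells are the helper T cells that secrete interferon gamma against intracellular microbes. Interleukin 12 reaches them through a receptor of paired chains and activates the transcription factor STAT4, while the T-box factor T-bet, made by Tbx21, is the lineage's master regulator and acts on Ifng directly. Interleukin 18, through its own paired receptor, adds to interferon gamma output, and miR-155 is a microRNA induced on lymphocyte activation whose loss in mice biases CD4+ T cells away from Th1 and towards Th2 cytokines.

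The sequences below are shown because they are what the transferred microRNA could pair with. The mature strands of Mir155 (chromosome 16, RefSeq, GRCm38.p6, plus strand) are written 5′ to 3′ with the seed, bases 2 to 8, in capitals.
mmu-miR-155-5p: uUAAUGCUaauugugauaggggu
mmu-miR-155-3p: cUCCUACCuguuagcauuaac

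A perfect match to the 7 bases of the miR-155-5p seed, AGCATTA, was found in the annotated transcript of 1 of the 10 genes, Eomes. It starts at the first base after the stop codon of the transcript linked to the counted accession (GENCODE M21, GRCm38, chromosome 9, plus strand, 118485013 to 118485019). The match to the passenger strand's seed, GGTAGGA, was found in 1 gene, Stat4, in the 3' UTR (chromosome 1, plus strand, 52107046 to 52107052). Both are shown with their flanks, the match in capitals. For the other 8 genes no match to either seed lay in the transcript searched, which says only that these letters are not there.
Eomes, chr9:118485005-118485025: gtccctagAGCATTAttttaa
Stat4, chr1:52107038-52107058: tagaaaatGGTAGGAagttgg

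Ifng had the largest fold change of the 10 genes, so its proximal promoter is shown as well, the 250 bases before the RefSeq start site (chr10:118440796-118441045, plus strand, GRCm38.p6). Capitals mark a match to the STAT palindrome TTCNNNGAA at the far end and the TATA box TATAAA that starts 30 bases before the start site, with no overlap between them. Searched on both strands, a STAT palindrome stood in 7.02% and a TATAAA in 12.4% of the 32851 mouse promoter windows of this length. The T-box half-site GTGTGA, held by 12.3% of windows, was not found in this one, and of the other members with a window only Il12rb2 held it. The STAT palindrome was not particular to Ifng: the Il12rb2 window held 1 match and 1 of the Il18r1 windows held 2.
Ifng: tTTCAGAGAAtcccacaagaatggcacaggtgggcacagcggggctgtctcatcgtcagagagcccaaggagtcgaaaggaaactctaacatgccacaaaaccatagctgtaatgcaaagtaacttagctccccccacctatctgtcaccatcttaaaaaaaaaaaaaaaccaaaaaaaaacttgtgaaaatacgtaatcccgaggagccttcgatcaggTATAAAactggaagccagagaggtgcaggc

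The libraries held 4564010 to 13675127 counts. Over the 8308 accessions with enough counts to test, the correlation of log2 CPM (counts per 1000000 counts of scaled library size) across genes averaged 0.457 within groups and 0.445 between groups. These are correlations across genes, which are not independent replicates, and carry no test. Among the defining markers, Cd4 had 5, 8 and 9 counts in the 8 h libraries and 6, 6 and 10 in the controls, in ascending order. The 9 T cell markers summed to 5120 to 12363 CPM at 8 h and 3361 to 19191 CPM in controls. Of these 9, Cd3g and Cd5 were high in every library, but Cd247 had 3 to 16 counts and Lck ran from 171 to 162085. Cd40lg, listed with Cd4, had 324, 107 and 2 counts in 8 h replicates 1 to 3 and 32, 2 and 32 in control replicates 1 to 3. The CD4 label thus rests here on genes of T cells in general, uneven between libraries, and not on Cd4 itself. Actb and Gapdh, abundant in most cells, had 1 to 11 counts in every library. B2m, abundant likewise, had 10, 14 and 7 counts in 8 h replicates 1 to 3 and 148, 42 and 123 in control replicates 1 to 3. These 3 genes summed to 1.74 to 2.26 CPM at 8 h and 8.95 to 27.5 CPM in controls, without overlap, so it is not certain that these rows are usual per-gene counts, a limit on every value here.

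All 10 genes passed the filter on low counts. None passed edgeR's quasi-likelihood test of 8 h against control at a Benjamini-Hochberg adjusted p under 0.05 over all tested accessions, where 0% were called. At an unadjusted p under 0.05 edgeR gave 2 of the 10 genes, Ifng and Il18rap, beside 8.53% of all tested accessions. DESeq2's Wald test, as an alternative, called 1 of the 10, Ifng, beside 6.72% of the accessions to which it gave an adjusted p. Of the 10 genes 3 had higher and 7 lower fitted values at 8 h, with a median log2 fold change of -0.42, beside 0.06 over all 8308. In 1 gene, Ifng, every 8 h library lay above every control, as in 5.72% of tested accessions, and in 1, Tbx21, every 8 h library lay below every control, as in 5.08%. Since 8 of the 10 genes overlapped between groups, the sections that follow give each gene library by library.

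**Figure D1:**
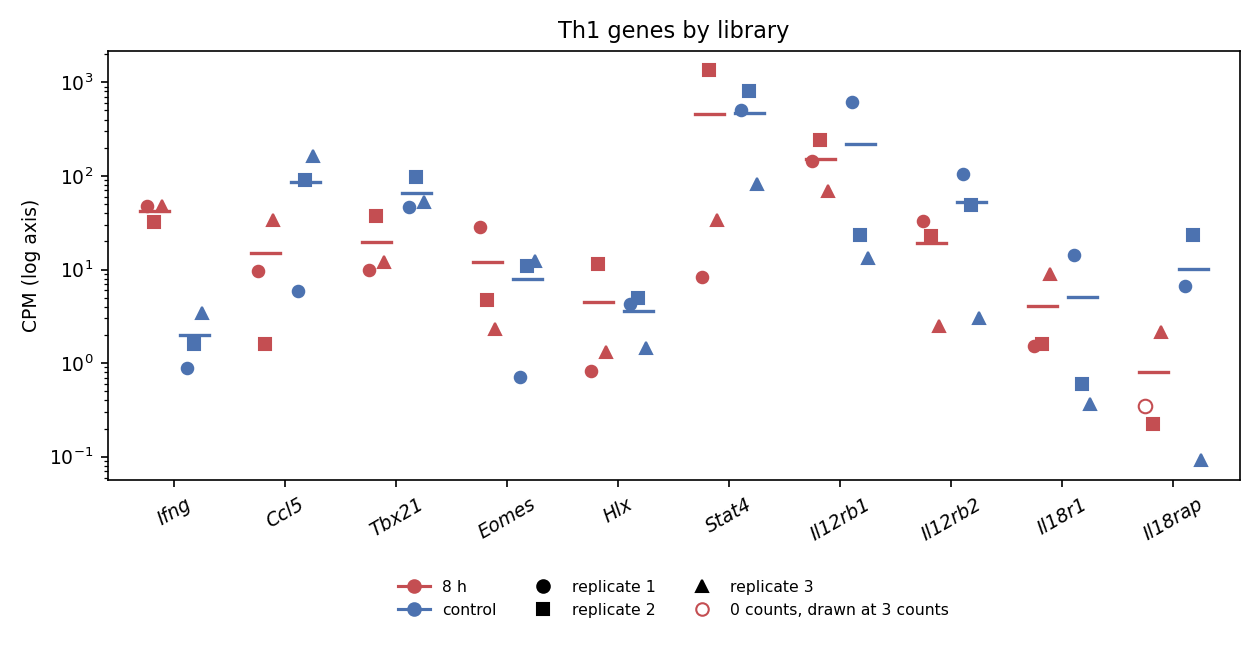
CPM of the 10 Th1 genes on a log axis, 8 h libraries left of controls within each gene, 1 point per library, with lines at the group means (n = 3 each). The Ifng points at 8 h, 32.2 to 48.3 CPM, sit above all of its control points, 0.894 to 3.47 CPM, while most other genes overlap.

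Among the products, Ifng, the interferon gamma gene (118441046 to 118445894 on chromosome 10, GRCm38), had 405, 428 and 333 counts in 8 h replicates 1 to 3 and 5, 8 and 38 counts in control replicates 1 to 3. In CPM these were 47.5, 32.2 and 48.3 at 8 h against 0.894, 1.59 and 3.47 in controls. The 8 h libraries were alike, the highest being 1.497 times the lowest, and each exceeded each control. The log2 fold change was 4.41 ± 1.95 (SE, n = 3 each), with a 95% interval of 0.58 to 8.23 and an edgeR adjusted p of 0.538. By DESeq2 it was 4.41 ± 1.13 (SE), with an adjusted p of 0.0065, and over the alternatives the adjusted p ran from that value to 0.998. Within each library Ifng stood at the 85th to 89th percentile of all accessions at 8 h and at the 37th to 57th in controls.

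The spread of Ifng was below the median of accessions of like level in both groups, which was not particular to Ifng. Across the 5506 tested accessions with mean levels in the range of the 10 genes and a count in every library, the highest library was 11.3 times the lowest at 8 h and 11.03 times in controls, in the median. Ifng had 1.497 times at 8 h and 3.88 times in controls. Tbx21 had 3.74 times at 8 h and 2.13 times in controls. Hlx had 13.8 times at 8 h and 3.41 times in controls, and Il12rb1 had 3.54 times at 8 h and 46.7 times in controls. The share of accessions with a range as narrow as that of Ifng was not computed. The control values rest on few counts. With exact Poisson limits control replicate 1 stood between 0.29 and 2.09 CPM. These limits take each count as independent and do not cover the spread between libraries.

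Ccl5 encodes a chemokine that draws T cells and monocytes, made by effector T cells and natural killer (NK) cells. It had 82, 21 and 234 counts in 8 h replicates 1 to 3 and 33, 458 and 1770 counts in control replicates 1 to 3. The highest 8 h library, at 33.9 CPM, lay below controls 2 and 3, at 91.1 and 161 CPM, but 2 of the 8 h libraries lay above control 1, at 5.90 CPM. The means were 15.0 ± 16.8 CPM at 8 h and 86.1 ± 77.9 CPM in controls (SD, n = 3 each), and the log2 fold change was -2.52 ± 1.83 (SE; edgeR adjusted p = 0.705). The fitted direction of Ccl5, higher in controls, was thus opposite to that of Ifng, and neither passed the test.

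Of the transcription factors, Tbx21 (chromosome 11, 97098007 to 97115331) had 9.98, 37.3 and 12.03 CPM in 8 h replicates 1 to 3, against 46.1, 98.2 and 53.3 CPM in control replicates 1 to 3. The groups did not overlap, and 8 h replicate 2 and control replicate 1 came nearest to each other. The log2 fold change was -1.74 ± 1.77 (SE), with a 95% interval of -5.20 to 1.73 and an edgeR adjusted p of 0.807. Per kilobase of transcript, Ifng stood above Tbx21 in every 8 h library, at 9.81, 1.78 and 8.26 times its level in replicates 1 to 3. In control replicates 1 to 3 Ifng stood at 0.0399, 0.0334 and 0.134 times the level of Tbx21. The ratio of both genes within a library does not depend on the scaling between libraries. That it separated the groups without overlap follows from each gene doing so, in opposite directions. As the pair was chosen after the values were seen, no test is given.

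Eomes, the T-box factor related to T-bet and prominent in cytotoxic and NK cells, had 28.8, 4.67 and 2.32 CPM at 8 h and 0.715, 10.9 and 12.3 CPM in controls, in the order of the replicates. One library of each group stood apart, 8 h replicate 1 with 245 counts and control replicate 1 with 4. The log2 fold change was 0.57 ± 1.66 (SE; edgeR adjusted p = 0.949) and was -1.18 without 8 h replicate 1. Eomes, the only member with a miR-155-5p seed match, thus turned its direction with 1 library. Hlx, a homeobox factor that cooperates with T-bet in mouse Th1 cells, was low, with 7, 151 and 9 counts at 8 h and 24, 25 and 16 counts in controls. In CPM these were 0.822, 11.4 and 1.30 at 8 h and 4.29, 4.97 and 1.46 in controls, so that 8 h replicate 2 was the highest of all 6 libraries. The log2 fold change of Hlx was 0.34 ± 1.49 (SE; edgeR adjusted p = 0.967), and -1.72 without that library.

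Stat4, which carries the interleukin 12 signal to the nucleus, showed the widest spread within the 8 h group. It had 71, 17854 and 232 counts in 8 h replicates 1 to 3, or 8.335, 1344 and 33.6 CPM, so that the highest was 161 times the lowest. The controls had 2859, 4025 and 902 counts, or 511, 800 and 82.3 CPM. The group means were nearly equal, at 462.1 ± 764 CPM at 8 h and 464.5 ± 361 CPM in controls (SD, n = 3 each). Without 8 h replicate 2 the log2 fold change was -4.45, against -0.01 with all libraries, and 2 of the 3 8 h libraries lay below every control. The 95% interval with all libraries, -4.04 to 4.03, leaves room for a large change either way (edgeR adjusted p = 0.999).

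**Figure D2:**
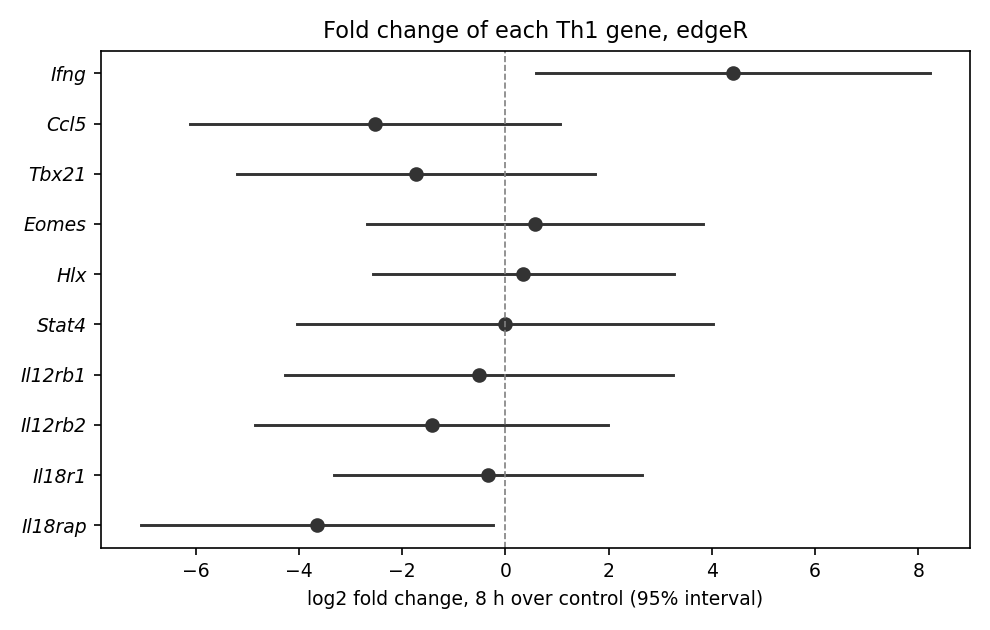
Log2 fold change of each Th1 gene, 8 h over control, from edgeR's fit to 3 libraries a group, with 95% intervals from counts of all 6 libraries. The intervals of Ifng, 0.58 to 8.23, and Il18rap, -7.07 to -0.24, lie to one side of 0 before adjustment for multiple tests, and the other 8 span 0.

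The receptor for interleukin 12 joins the product of Il12rb1, which is shared with the interleukin 23 receptor, to that of Il12rb2, the signalling chain characteristic of Th1 cells. Il12rb1 had 146, 242 and 68.4 CPM in the 8 h replicates and 614, 23.7 and 13.1 CPM in control replicates 1 to 3. All 3 values at 8 h lay between control replicate 1, the highest library, and controls 2 and 3, the lowest. The log2 fold change of Il12rb1 was -0.51 ± 1.92 (SE; edgeR adjusted p = 0.960) and was 3.06 without control replicate 1. Il12rb2 had 32.8, 23.0 and 2.46 CPM at 8 h and 105, 48.9 and 3.01 CPM in controls, replicate 3 being the lowest in both groups. Its log2 fold change was -1.43 ± 1.75 (SE; edgeR adjusted p = 0.849), and -0.40 without control replicate 1.

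Per kilobase, Il12rb1 exceeded Il12rb2 in 5 of the 6 libraries. The ratio was 4.65, 10.9996 and 29.0 in 8 h replicates 1 to 3 and 6.11, 0.505 and 4.55 in control replicates 1 to 3. Control replicate 2 was the exception, and the 2 groups overlapped.

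The interleukin 18 receptor pairs the binding chain, Il18r1, with the accessory chain, Il18rap. Il18r1 had 13, 21 and 62 counts at 8 h and 80, 3 and 4 counts in controls, and without control replicate 1 its log2 fold change was 3.04, against -0.34 ± 1.52 (SE) with all libraries (edgeR adjusted p = 0.970). Il18rap had 0, 3 and 15 counts at 8 h and 37, 118 and 1 in controls. The highest 8 h library, at 2.17 CPM, lay below controls 1 and 2, at 6.61 and 23.5 CPM, and 2 of the 8 h libraries lay above control 3, at 0.0912 CPM. The 0 in 8 h replicate 1 allows up to 0.352 CPM by the limit of 3 counts, and up to 0.433 CPM by the exact two-sided Poisson interval. The log2 fold change of Il18rap was -3.65 ± 1.74 (SE; edgeR adjusted p = 0.544), with extremes of -6.15 when 8 h replicate 3 was left out and -2.04 when control replicate 2 was. The balance of the paired chains varied between libraries. Per kilobase Il18r1 exceeded Il18rap in 4 of the 5 libraries that allow a ratio, by 5.51 to 17.8 times, and stood at 0.0648 times its level in control replicate 2.

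Fitted directions were thus lower at 8 h for all 4 receptor chains, but for Il12rb1 and Il18r1 the direction turned with 1 library. Leaving out each library in turn, the direction stayed the same for Ifng, higher at 8 h, and for Ccl5, Tbx21, Il12rb2 and Il18rap, lower at 8 h. It turned for Eomes, Hlx, Stat4, Il12rb1 and Il18r1.

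**Figure D3:**
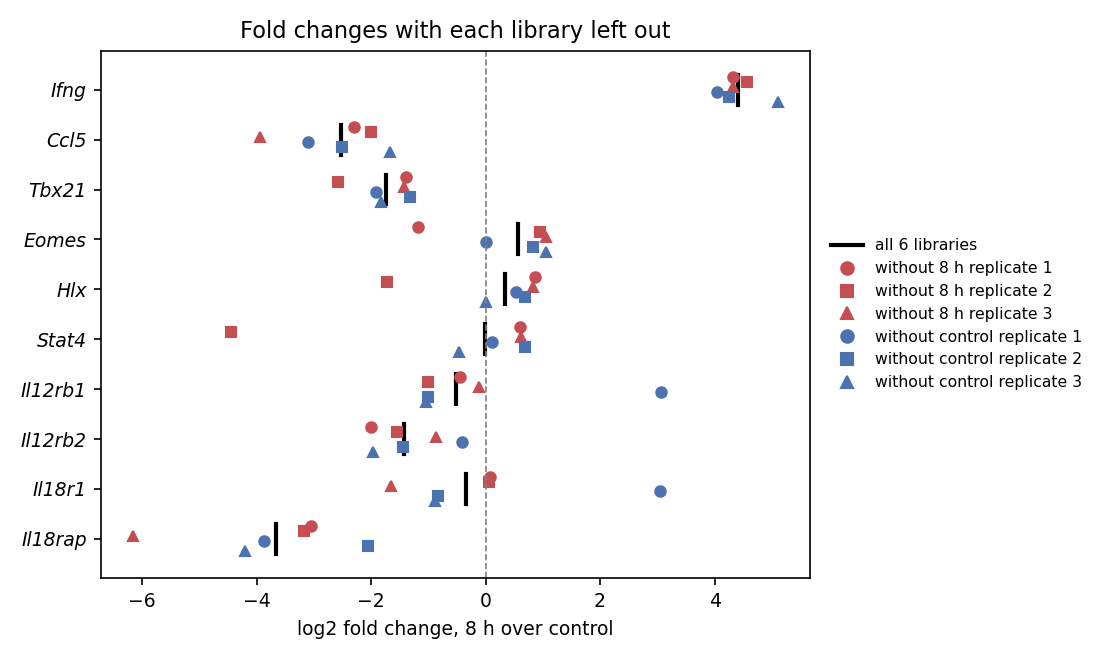
Log2 fold change of each Th1 gene, 8 h over control, with all 6 libraries (black bar) and with 1 library left out (red, an 8 h library; blue, a control). Ifng stays between 4.05 and 5.11, while Stat4 runs from -4.45 to 0.69 and Il12rb1 from -1.05 to 3.06.

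The order of the genes, compared per kilobase of transcript, also differed between libraries. At 8 h the group means ran from Stat4, at 155 ± 256 CPM per kb, through Il12rb1 at 53.0 ± 30.3, Ifng at 35.3 ± 7.49 and Ccl5 at 28.3 ± 31.6 down to Il18rap at 0.164 ± 0.244 CPM per kb (SD, n = 3). In controls Ccl5 came first, at 162 ± 146 CPM per kb, followed by Stat4 at 156 ± 121 and Il12rb1 at 75.5 ± 120, and Hlx came last at 1.57 ± 0.817 CPM per kb (SD, n = 3). Ifng was the third of the 10 at 8 h and the ninth in controls, at 1.64 ± 1.10 CPM per kb. In neither group did the lowest library of any gene lie above the highest library of the next gene in the order.

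The 10 genes together had 2431, 22555 and 1473 counts in 8 h replicates 1 to 3 and 7319, 5551 and 3627 in control replicates 1 to 3. The sum was 732 ± 837 CPM at 8 h and 914 ± 516 CPM in controls (SD, n = 3 each). Different genes made up this sum. Stat4 took 79.2% of it in 8 h replicate 2 (exact Clopper-Pearson 95% interval 78.6 to 79.7) and 72.5% in control replicate 2 (71.3 to 73.7). Il12rb1 led in 8 h replicates 1 and 3 and in control replicate 1, with 51.2% (49.2 to 53.2), 32.0% (29.7 to 34.5) and 46.9% (45.8 to 48.1). In control replicate 3 Ccl5 led with 48.8% (47.2 to 50.4). These intervals take each count as independent and do not cover the spread between libraries. Ifng was the second gene in 8 h replicates 1 and 3, with 16.7% and 22.6%, and took 1.05% or less in each control. In 8 h replicate 2 it took 1.90%, where Stat4 was high.

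**Figure D4:**
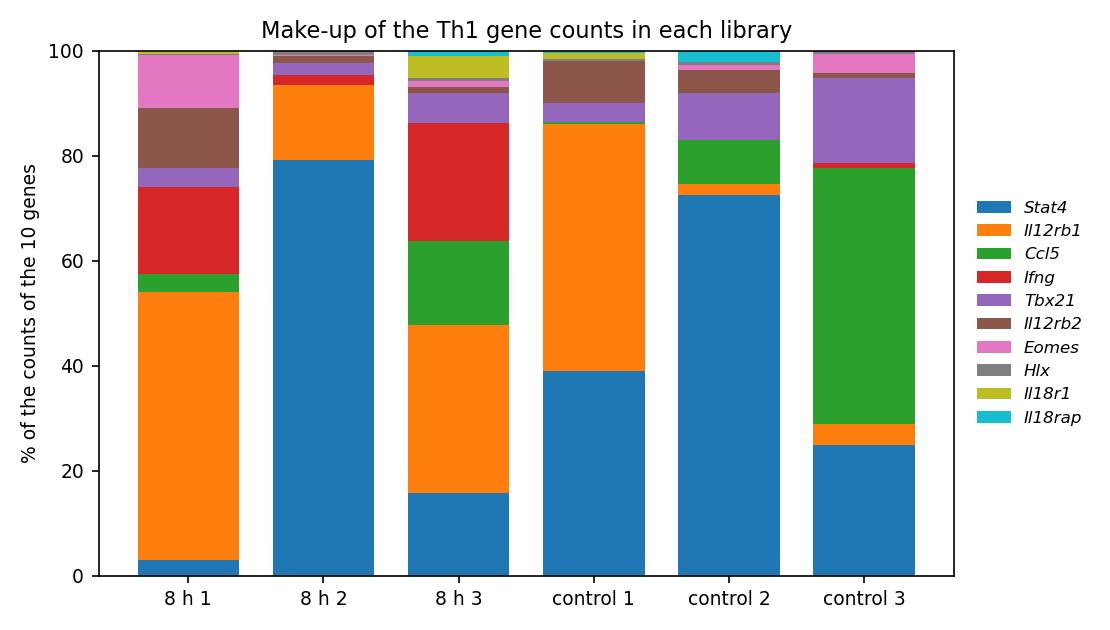
Percentage of the summed counts of the 10 Th1 genes that fell on each gene, per library, 8 h libraries to the left. Stat4 takes 79.2% in 8 h replicate 2 and 72.5% in control replicate 2, and Ifng is visible mainly in 8 h replicates 1 and 3.

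Several of the 10 genes, among them Eomes, Ccl5, Tbx21 and Il18rap, are also expressed by NK and cytotoxic cells. All 12 markers of those cells were matched, and they summed to 262 to 458 CPM at 8 h and 2189 to 4863 CPM in controls, without overlap. The means of Ccl5, Tbx21 and Il18rap were lower at 8 h, as was this sum. That of Eomes was higher, at 11.9 CPM against 7.99 CPM in controls. Of these genes only Tbx21 did not overlap between groups. The separation of the sum did not hold marker by marker. By group means 8 of the 12 were lower at 8 h and 4, Ncr1, Klrk1, Klrc1 and Fcgr3, were higher. In 3 of the 12, Klrb1c, Gzma and Gzmk, every 8 h library lay below every control, beside 5.08% of tested accessions, and in 0 above. Fcgr3 had 260, 253 and 191 counts at 8 h and 134, 1 and 1 in controls, and Klrc1 had 2, 151 and 1 at 8 h and 0, 1 and 2 in controls. In each library Gzmb, a granule protease, or Nkg7, a granule protein, made up the largest share, and both are also made by activated T cells. Gzmb made up 93.2% of the sum in control replicate 1 and 48.1% in control replicate 2. In control replicate 3 Nkg7 made up 60.9%, and Gzmb, at 24.3 CPM, lay below every 8 h library. Ifng, also a product of NK cells, had higher values at 8 h. Of the defining NK genes, Ncr1 had 141, 1 and 10 counts at 8 h and 1, 22 and 76 in controls. Klrb1c had 0, 24 and 1 counts at 8 h against 124, 18 and 90 in controls. In CPM the values of Klrb1c were 0, 1.81 and 0.145 at 8 h against 22.2, 3.58 and 8.21 in controls, without overlap. None of the 12 was at 0 in every library. Markers of CD8 T cells summed to 11.45 to 60.7 CPM at 8 h and 7.56 to 38.4 CPM in controls, and those of B cells to 35.5 to 98.5 CPM at 8 h and 24.7 to 84.2 CPM in controls. Myeloid markers summed to 15.7 to 17.8 CPM at 8 h and 22.3 to 42.0 CPM in controls, and erythroid markers to 1.17 to 2.18 CPM at 8 h and 2.01 to 12.7 CPM in controls. The part of NK, cytotoxic and these other cells in the values of the Th1 genes was not tested, and in bulk RNA fewer cells of a type and less RNA per cell cannot be told apart.

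Of 42 further genes of the Th1 pathway, 40 were matched and 25 had enough counts to test. None passed edgeR's test, 14 had higher and 11 lower fitted values at 8 h, and the median log2 fold change was 0.05, beside 0.06 over all tested accessions. DESeq2 called 1 of them, Lta, beside 6.72% of the accessions to which it gave an adjusted p. The 8 most abundant of the 25 spanned both directions. Lta, encoding lymphotoxin alpha, another Th1 product, had 17266, 131 and 631 counts at 8 h and 14, 20 and 549 in controls, with a log2 fold change of 5.23 ± 2.42 (SE; edgeR adjusted p = 0.543). Irf1, an interferon-induced factor that acts in Th1 differentiation, had 2634, 23233 and 798 counts at 8 h and 55, 2391 and 74 in controls. Ifngr1, whose product binds interferon gamma, had 88, 255 and 653 counts at 8 h and 198, 32 and 5716 in controls. In Lta and Irf1 the lowest 8 h library lay below the highest control, so that the groups overlapped.

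Ccl4, a chemokine of activated T and NK cells, and Nfkb1, an NF-kB subunit, were each highest in 1 control library. Ccl4 had 80, 726 and 19 counts at 8 h and 20, 200 and 11965 in controls. Nfkb1 had 289, 5295 and 46 counts at 8 h and 87, 328 and 33665 in controls. Bhlhe40, a factor that sustains interferon gamma production, was highest in 8 h replicate 2, at 27319 counts, the library where Stat4 was also highest. Socs1, an inhibitor of cytokine signalling, gave 1.34 ± 1.93 (SE) as its log2 fold change (edgeR adjusted p = 0.877). Ltb, encoding lymphotoxin beta, gave -0.58 ± 2.09 (SE; edgeR adjusted p = 0.960). Il2, named here after its values were seen, was the only one of the 25 in which every 8 h library lay above every control, as in 5.72% of all tested accessions. It had 626, 596 and 450 counts at 8 h and 19, 63 and 258 in controls, and a log2 fold change of 2.22 ± 1.79 (SE; edgeR adjusted p = 0.745).

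Patterns like those of Ifng and Tbx21 were sought among 7977 named tested genes by the root mean square difference of centred log2 CPM over the 6 libraries. The nearest to Ifng were Clvs1, at 0.25, Tmco3, at 0.53, and Fmo4, at 0.55. Clvs1 had 64, 65 and 43 counts at 8 h and 0, 0 and 5 in controls. Near to Tbx21 lay Ccar2, at 0.31, and Mrs2, at 0.33, of which Ccar2 had 41, 124 and 30 counts at 8 h and 111, 221 and 222 in controls. None of these 5 genes was listed among the 42. Among the 10 Th1 genes, Hlx lay nearest to Tbx21, at 1.02, and Eomes nearest to Ifng, at 2.37. Both lay farther than the genes just named. Those were the nearest of 7977 and these the nearest within a list of 10, so the distances cannot be compared evenly. These distances are descriptions over 6 libraries and carry no test.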

How the data were processed

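RNA from a PAXgene kit went into Illumina TruSeq libraries, per the labels' protocols. The file is 1 table of raw counts as the authors deposited them, for 13177 RefSeq accessions in 6 libraries, with 0 columns outside the series. The submitters' processing notes name Bowtie, R 3.4.2 and GRCm38 without saying what each was used for. The sources used here do not state the counting program, its filters, its use of strand or how multiply matching reads were handled. Symbols came from a RefSeq table of GRCm38.p6 (12824 accessions) or GENCODE M21 (50), and 303 stayed unnamed.

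From the deposited counts, edgeR 4.0.16 in R 4.3.3 was run with TMM scaling, filterByExpr and a two-sided quasi-likelihood F test in its default form, adjusted by Benjamini-Hochberg over 8308 accessions. Each SE was obtained by dividing the size of the log2 fold change by the root of F, and intervals are normal. CPM use TMM-scaled library sizes, and levels per kb use GENCODE transcript lengths. Alternatives were DESeq2 1.42.0, limma-voom (limma 3.58.1), scaling by RLE or upper quartile, a replicate block, other filters, the newer quasi-likelihood form and leaving out each library. The scripts were tested on simulated data with known changes. With the spread of these libraries edgeR recovered none of them, and most of DESeq2's calls there fell on unchanged genes; with a much smaller spread both recovered nearly all. An edgeR adjusted p above the threshold therefore does not show equal levels, and DESeq2's calls are to be read with that in mind. The 10 genes, the pathway and marker lists and the naming rule (all members, the 8 most abundant tested pathway genes, and the 3 nearest patterns to Ifng and to Tbx21) were chosen with earlier results of these data known. One gene that the rule names is not reported here. No molecular identifiers are mentioned in the labels, so several counts may come from copies of the same molecule. The counting intervals take each count as independent, so they may be too narrow even for counting error.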

Additional observations from a re-analysis of the deposited data

How the results depend on the processing

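No accession was called with the replicate block, RLE or upper-quartile scaling, either other filter, the newer quasi-likelihood form, limma-voom or without any 1 library (0 to 0), so 0 of the 10 Th1 genes and 0 pathway genes were. As no gene passed in any of these fits, the zeros say nothing about stability. DESeq2 called 642 accessions, 1 Th1 gene (Ifng) and 1 pathway gene (Lta). Of 138 log2 fold changes of Th1 genes under alternatives, 118 kept direction and side of the threshold, 1 passed it and 19 turned. With the replicate block Eomes (-0.24), Hlx (-0.39), Il12rb1 (1.52) and Il18r1 (1.09) turned, with limma-voom Hlx (-0.20), Il12rb1 (1.10) and Il18r1 (0.95), and Stat4 without a filter (0.020) or at a mean of at least 5 CPM (0.036). Stat4 had a log2 fold change of -0.01 as reported, -1.81 with the replicate block and -2.37 with limma-voom. Without 1 library the ranges were -1.18 to 1.06 for Eomes, -1.72 to 0.86 for Hlx, -4.45 to 0.69 for Stat4, -1.05 to 3.06 for Il12rb1 and -1.66 to 3.04 for Il18r1. The log2 ratio of the summed CPM was -0.32, and -1.86 to 0.17 without 1 library. The cause was not tested. Deviations of same-numbered libraries correlated at -0.0107, 0.0151 and -0.0039, so the numbers were not taken as pairs.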
